A study of Mus musculus with 15 samples.

Results

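The transcriptome described here is that of control mouse granulosa cells, taken as the 6 libraries that received a scrambled siRNA out of 15 libraries in the series. They were 3 libraries at 30 h and 3 at 54 h after transfection, read together as a baseline without a contrast between the times. The study silenced Foxl2 and Esr2 in primary granulosa cells from ovaries of 8-week-old RjOrl:SWISS females. Cells grew in 6-well plates and received 30 pmol of siRNA with Lipofectamine RNAiMax. Beside them stood 3 groups of 3 libraries, which received Esr2 siRNA (30 h) or Foxl2 siRNA (30 h or 54 h), and pools of 3 siRNAs addressed each target. The control cells therefore carried the transfection reagent and a non-targeting siRNA, and no untransfected cells were analysed here. Poly(A) RNA was read as single 75-base reads from a stranded mRNA kit. The extraction protocol names 30 h alone, so 54 h rests on the sample titles, and the siRNA catalogue numbers listed are identical for both targets. Whether libraries of 1 group derive from different animals or dishes is not stated, so p-values measure the variation among these libraries, some of which may be technical.

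Granulosa cells are the somatic cells that surround the oocyte in the ovarian follicle. They convert androgens into oestrogens, secrete inhibins and activins, and after ovulation turn into luteal cells that make progesterone. Their identity is maintained by transcription factors such as FOXL2, and their function in the follicle is steered by the pituitary hormones FSH and LH, by oestrogen and by ligands of the TGF-beta family.

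Gene counts per scrambled library ranged from 44.98 M to 59.44 M, with 17404 to 17698 genes detected by 1 or more counts. Levels are given as counts-per-million (CPM) after TMM scaling, with the mean and SD of the 6 libraries. A gene was classed as expressed at a CPM of at least 1 in each of the 6 libraries, as abundant at a mean of at least 100 CPM, and as at or under the floor with at most 3 counts in every library. That floor, 3 counts, is also what a count of 0 allows, and equals 0.0505 to 0.0667 CPM depending on the library; it covers counting error only. Replicate libraries differed by more than counting noise (chi-square per degree of freedom of 7.18 to 38.1), so none was taken for a library deposited more than once; this does not tell separate cultures from separate preparations. The scrambled library 30 h number 1 stood apart in a few transcripts: Rn45s, a ribosomal RNA precursor, reached 2960 CPM there against 625 to 1000 CPM in the other 5, and Lars2 813 CPM against 87.0 to 301 CPM.

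Of 24490 genes, 12235 (49.96%) were expressed, 4311 (17.6%) were low and 7944 (32.4%) lay at or under the floor, 4976 of these with a count of 0 in all 6 libraries. The expressed genes held 99.8% of the counts. Counts were spread over many genes: 1115 genes held 50% of them, the 10 most abundant took 4.434% to 4.601% of a library and the 100 most abundant 16.5% to 16.8%. The abundant class had 2480 genes and 68.4% of the counts, and 72 genes reached 1000 CPM.

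The label of the cells was checked against granulosa markers. Cyp11a1, the side-chain cleavage enzyme that starts steroid synthesis (chr9:58006411-58027023, GRCm38, plus strand), was at 2259, 2731 and 2585 CPM at 30 h and at 1862, 2010 and 2002 CPM at 54 h, rank 14 of all genes. Inha, the inhibin alpha subunit (chr1:75507077-75510366, plus strand), was at 1898, 1911 and 1928 CPM at 30 h and at 1973, 1930 and 1914 CPM at 54 h. These 6 values of Inha, rank 26, span a narrow band in which the libraries of both times overlap. The nuclear receptor gene Nr5a2 (chr1:136842571-136960448, minus strand) was at 178, 183 and 188 CPM and then at 207, 177 and 193 CPM. Foxl2 itself (chr9:98955288-98958543, plus strand) was at 174, 152 and 143 CPM and then at 189, 154 and 166 CPM, with the number 1 library the highest at each time. All 4 markers were thus abundant in every library.

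Of the 20 granulosa genes listed, 17 were expressed, 13 of them abundant, and their median mean level was 142 CPM against 1.38 CPM over all genes. Their summed level lay between 7878 and 8701 CPM. Cyp11a1, Inha and Gja1 weigh most in that sum, so it does not show whether single markers were steady. Gja1, whose connexin forms the gap junctions between granulosa cells, averaged 1472 CPM, and the activin and inhibin beta subunits Inhba and Inhbb 465 ± 59.9 and 282 ± 31.1 CPM. Kitl, the ligand for the oocyte's KIT receptor, averaged 278 CPM. Among regulators Gata4 averaged 607 CPM, Nr5a1 155 CPM, Wt1 102 CPM, the oestrogen receptor beta gene Esr2 64.8 CPM and Gata6 25.7 CPM. Amhr2, the receptor for anti-Müllerian hormone, averaged 129 CPM and Hsd17b1, which reduces oestrone to oestradiol, 122 CPM. Fst, the activin-binding follistatin, was at 45.5, 71.8 and 62.8 CPM at 30 h and at 82.6, 105 and 95.9 CPM at 54 h.

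Several genes tied to gonadotropin response or to small follicles had levels far below these. Cyp19a1, the aromatase that makes oestrogens, was at 2.41, 3.33 and 2.83 CPM at 30 h and at 3.28, 3.21 and 3.89 CPM at 54 h. Fshr, the FSH receptor, averaged 0.452 CPM (lowest 0.238, highest 0.645), and Amh, anti-Müllerian hormone, 0.276 CPM. Nr0b1, which encodes the orphan receptor DAX1, had 0 counts in all 6 libraries. Per kilobase of the longest annotated transcript, the order among the 4 markers was Inha at 1306, Cyp11a1 at 1057, Foxl2 at 50.05 and Nr5a2 at 39.6 CPM per kb.

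Promoter windows of granulosa genes are shown because members of the list with the same core hexamer had very different levels. The 100 bases before the RefSeq start (GRCm38.p6) are printed for 3 granulosa genes of very different level that hold a TATAAA hexamer, for Foxl2, which holds none there, and for 2 of the 30 most abundant genes that hold it. Capitals mark TATAAA, and each runs 5′ to 3′ on the gene's strand.
Kitl: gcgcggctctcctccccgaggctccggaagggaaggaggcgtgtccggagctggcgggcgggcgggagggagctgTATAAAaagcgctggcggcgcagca
Cyp19a1: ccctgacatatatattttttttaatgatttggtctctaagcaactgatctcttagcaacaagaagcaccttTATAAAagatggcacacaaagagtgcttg
Nr0b1: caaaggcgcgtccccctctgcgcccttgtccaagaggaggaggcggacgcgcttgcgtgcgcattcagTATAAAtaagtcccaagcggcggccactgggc
Foxl2: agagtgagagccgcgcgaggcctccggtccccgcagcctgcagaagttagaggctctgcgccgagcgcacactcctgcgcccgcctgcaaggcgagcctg
Cemip: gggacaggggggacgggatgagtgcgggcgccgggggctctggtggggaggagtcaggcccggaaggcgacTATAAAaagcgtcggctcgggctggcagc
Vim: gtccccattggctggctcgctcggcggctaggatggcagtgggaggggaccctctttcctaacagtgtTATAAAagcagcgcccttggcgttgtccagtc
They lie at chr10:100015721-100015820 (plus), chr9:54228915-54229014 (minus), chrX:86191675-86191774 (plus), chr9:98955507-98955606 (plus), chr7:84086506-84086605 (minus) and chr2:13574211-13574310 (plus). The Foxl2 bases lie inside the gene span given above, whose start is upstream of the RefSeq start. Bases before that span were not searched for the hexamer.

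The hexamer began at position -25 in Kitl (278 CPM), -29 in Cyp19a1 (3.16 CPM), -32 in Nr0b1 (0 CPM), -29 in Cemip (2492 CPM) and -32 in Vim (1781 CPM), counted from the RefSeq start. TATAAA on the gene's strand with its first base from -40 to -20 was present in 3 of the 13 granulosa genes found in the promoter table. It was present in 4 of the 77 matched genes among the 100 most abundant (5.19%; Cemip, Vim, Ddx5 and Ppia), in 1.36% of 9384 expressed genes and in 5.59% of 5167 genes at or under the floor. Over the whole table the share was 2.41%. Searched anywhere in the 300-base window on either strand, the hexamer was found in 20.8%, 8.38% and 25.3% of the same 3 sets, and in 15.7% of all genes. These matches are descriptions of sequence, with no test.

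Ranks 2 to 5 by mean level were held by the elongation factor gene Eef1a1 (5356 ± 161 CPM), the secreted chaperone gene Clu (5081 ± 863 CPM), the fatty acid desaturase gene Scd2 (4980 ± 246 CPM) and Aldh1a1 (4453 ± 467 CPM), whose enzyme makes retinoic acid. They were followed at ranks 6 to 8 by the actin gene Actg1 (4390 ± 529 CPM), the basement membrane collagen gene Col4a1 (3475 ± 207 CPM) and the laminin receptor gene Dag1 (2643 ± 276 CPM). Clu was at 3732, 5013 and 4416 CPM at 30 h and at 5828, 5813 and 5683 CPM at 54 h, so its values at 30 h all lay below those at 54 h. Ftl1, the ferritin light chain, was steady at 2129 ± 21.8 CPM.

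The 30 most abundant genes mixed housekeeping, matrix and steroid-making functions. The chaperone genes Hsp90ab1 and Hspa8 averaged 2518 and 2470 CPM, and Eef2, another elongation factor, 2132 CPM. Of the secreted or matrix genes, Cemip, whose product takes part in the breakdown of hyaluronan, averaged 2492 CPM, Thbs1 2353 CPM, Sparc 2137 CPM, fibronectin Fn1 2070 CPM and Col4a2 1986 CPM. The cytoskeleton was represented by Actb (2215 CPM), Cald1 (1983 CPM), Tuba1a (1849 CPM), Flna (1818 CPM) and the intermediate filament gene Vim (1781 CPM). Enzymes of lipid and steroid metabolism were Hsd3b1 (2497 CPM), Cyp11a1 and the epoxide hydrolase gene Ephx2 (2126 CPM). Further members were the receptor tyrosine kinase gene Axl (2000 CPM), Tsc22d1 and the heparan sulfate sulfotransferase gene Hs6st2 (1998 CPM each), Inha and the ubiquitin ligase gene Nedd4 (1883 CPM).

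**Figure D1:**
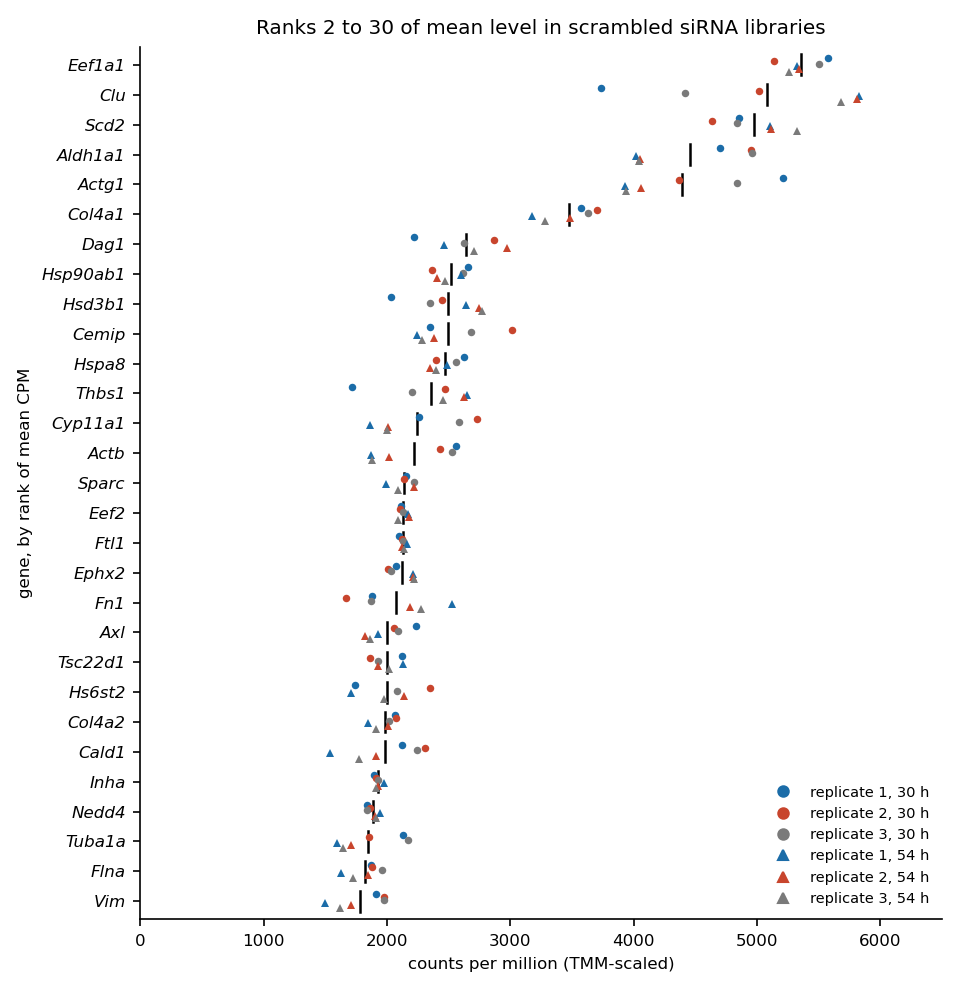
The genes at ranks 2 to 30 of mean level in the 6 scrambled libraries. The linear axis gives CPM, black bars are means and points are single libraries marked by time and replicate number; Eef1a1 leads at 5356 CPM on average and Vim closes the list at 1781 CPM.

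A long transcript yields more reads per molecule, so the order changes per length: 56 of the 100 most abundant genes were also among the top 100 by CPM per kb. On that scale, in CPM per kb, Eef1a1 was at 2986, Clu at 2807, Actg1 at 2249, Ftl1 at 2199, Aldh1a1 at 1888, Hsd3b1 at 1346 and Inha at 1306. The short transcripts S100a6 (1542 CPM per kb) and Tmsb4x (1283 CPM per kb), which binds actin monomers, held ranks 61 and 62 by mean CPM and ranks 9 and 12 per kb; both were named after their values were seen. The entries Mir684-1 (3921 CPM per kb over 86 bases) and Mir682 (1694 CPM per kb over 96 bases) are uncertain: these genes are near read length, and whether their counts came from other transcripts was not tested. Near-identical copies are uncertain as well: the glycolytic gene Eno1 had 0.034 CPM while its copy Eno1b had 767 CPM.

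Of 26 listed steroidogenesis genes 19 were expressed, with a median of 54.4 CPM. Hsd3b1, which turns pregnenolone into progesterone, was at 2031, 2448 and 2347 CPM at 30 h and at 2638, 2750 and 2768 CPM at 54 h. Its values at 54 h all exceeded those at 30 h. Star, which carries cholesterol into the mitochondrion, was at 312, 316 and 305 CPM and then at 286, 306 and 306 CPM, so that the number 1 library at 54 h was the lowest of 6.

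The electron carriers of the side-chain cleavage reaction, Fdx1 and Fdxr, averaged 476 and 114 CPM, and Por, which serves microsomal P450 enzymes, 128 CPM. Cholesterol uptake was represented by the HDL receptor Scarb1 (273 CPM), and cholesterol transport within the cell by Npc2 (197 CPM), Npc1 (76.3 CPM) and Stard3 (24.7 CPM). Of the 17-beta dehydrogenases, Hsd17b12 averaged 154 CPM, Hsd17b1 122 CPM and Hsd17b7 71.8 CPM, while Hsd17b3, the testicular form, was at or under the floor. Hsd11b2, which inactivates glucocorticoids, was at 14.7, 25.3 and 28.6 CPM at 30 h and at 51.3, 49.7 and 52.3 CPM at 54 h. Akr1c18, which inactivates progesterone, averaged 13.1 CPM and Srd5a1 7.93 CPM.

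Enzymes of the androgen and adrenal branches were low or undetectable at this depth. Cyp17a1, needed for androgens and typical of theca cells, averaged 0.163 CPM. Hsd11b1 averaged 0.105 CPM, Cyp11b1 0.713 CPM and Cyp11b2 0.055 CPM, and the 21-hydroxylase gene Cyp21a1 was at or under the floor. Other 3-beta dehydrogenase genes were far below Hsd3b1, with Hsd3b6 at 2.39 CPM and Hsd3b2 at 0.861 CPM, although reads of such related genes may be shared between them.

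Among 10 luteal markers, of which several also stand in the granulosa and steroidogenesis lists, 9 were expressed. The Wnt antagonist gene Sfrp4 averaged 1641 CPM and the prolactin receptor gene Prlr 81.8 CPM. Ptgfr, the receptor through which prostaglandin F2 alpha ends luteal life, averaged 4.76 CPM. Lhcgr, the LH receptor, was low at 0.596 CPM (lowest 0.375, highest 0.917).

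Markers of other cell types divided into those near the floor and those clearly present. In bulk RNA, fewer cells of a type and less RNA per cell cannot be told apart. Of 19 leukocyte markers 1 was expressed, Cd68 at 2.26 CPM, a lysosomal gene that is not restricted to macrophages. Csf1r averaged 0.950 CPM and Coro1a 0.291 CPM, and 9 were at or under the floor, among them Ptprc, which encodes the pan-leukocyte antigen CD45, Adgre1, Tyrobp, Cd3e, Ms4a1, Nkg7, S100a9 and Mpo. The summed leukocyte level was 3.83 to 4.93 CPM.

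Erythroid RNA was barely seen: none of 7 markers was expressed, and the globin genes Hba-a1, Hba-a2, Hbb-bs and Hbb-bt had 0 counts throughout. Slc4a1 also had 0 counts and Alas2 averaged 0.202 CPM. Of 15 oocyte markers 1 was expressed, the germ cell helicase gene Ddx4 at 2.58 CPM. Kit averaged 0.911 CPM and Gdf9, the oocyte's growth factor, 0.407 CPM, and the zona pellucida genes Zp1, Zp2 and Zp3 were at or under the floor together with Figla, Padi6, Mos and Nlrp5. The summed oocyte level was 3.57 to 4.95 CPM.

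Endothelial markers were expressed in 2 of 12 cases, Egfl7 (3.07 CPM) and Esam (1.90 CPM), and Emcn averaged 2.97 CPM. Of 5 adipocyte markers 0 were expressed: Fabp4 averaged 1.14 CPM, Plin1 0.0408 CPM, and Adipoq, Lep and Cidec were at or under the floor. Of 6 neuron and glia markers 1 was expressed, while Sox10 was at or under the floor. Rbfox3 averaged 1.40 CPM and Snap25 0.268 CPM. Sertoli cells are the male counterpart of granulosa cells, and 5 of 10 of their markers were expressed, led by Fgf9 (16.7 CPM), Dhh (16.6 CPM) and Sox9 (8.97 CPM). Dmrt1, a testis factor gene that acts against FOXL2 in sex determination, had 0 counts in all 6 libraries.

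Stromal, muscle and epithelial markers were present at higher levels. Of 14 theca and stroma markers 8 were expressed. Col1a1, the chain of fibrillar collagen I, was at 128, 439 and 323 CPM at 30 h and at 133, 534 and 342 CPM at 54 h. Col3a1 averaged 217 CPM and Col1a2 195 CPM, whereas the theca hormone gene Insl3 and Hhip were at or under the floor. Of 11 smooth muscle and pericyte markers 10 were expressed. Acta2, smooth muscle actin, was at 529.6, 813 and 747 CPM at 30 h and at 261, 671 and 473 CPM at 54 h. Tagln averaged 391 CPM and Mcam 100.1 CPM. Of the 12 surface epithelium markers found in the files 7 were expressed, led by the keratin genes Krt8 (184 CPM) and Krt18 (122 CPM) and by Upk3b (18.5 CPM).

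**Figure D2:**
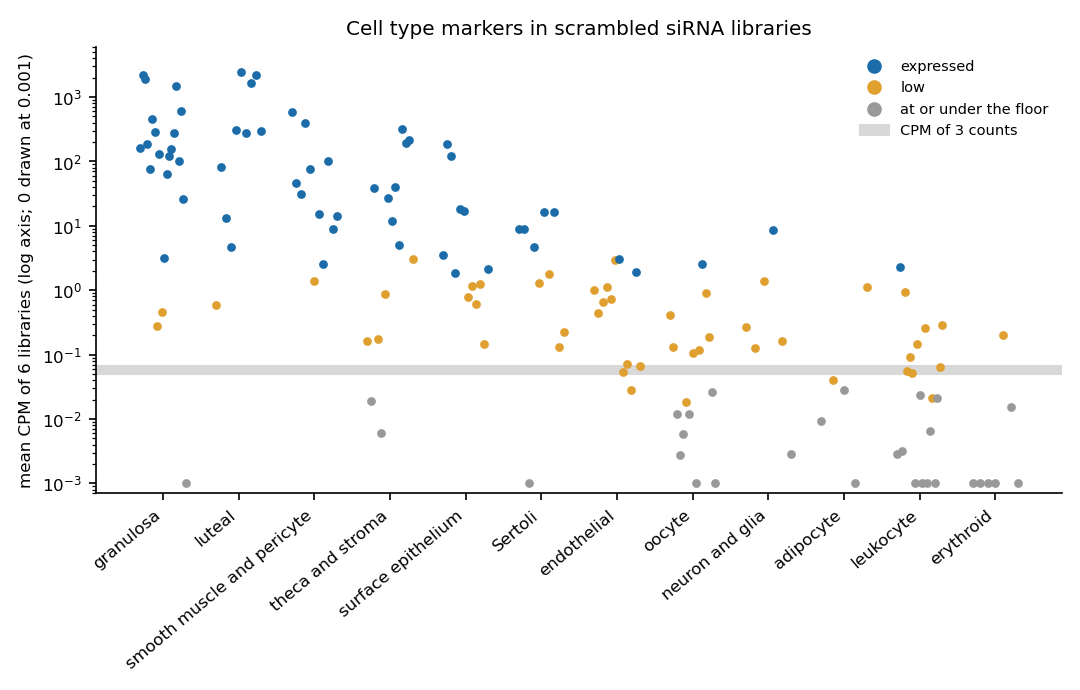
Mean level of each marker by cell type list in the 6 scrambled libraries. The axis gives mean CPM on a log scale, each point is 1 gene; leukocyte, erythroid, oocyte and adipocyte markers crowd near the floor, while 17 of 20 granulosa and 10 of 11 smooth muscle markers were expressed.

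Receptor genes were taken by family. Of 49 nuclear receptor genes 34 were expressed, with Nr5a2 and Nr5a1 the highest at 187 and 155 CPM. They were followed by Nr2c2 (78.2 CPM), the bile acid receptor Nr1h4 (70.5 CPM), Nr2f6 (69.0 CPM) and Esr2. Esr2 was at 60.6, 60.4 and 61.6 CPM at 30 h and at 74.2, 64.9 and 67.2 CPM at 54 h, so the 54 h values all lay above those at 30 h. Pparg averaged 55.3 CPM, the alpha oestrogen receptor gene Esr1 9.59 CPM and the progesterone receptor gene Pgr 7.17 CPM. Per kilobase, Nr5a1 (51.7 CPM per kb) stood above Nr5a2 (39.6 CPM per kb) and Esr2 (19.3 CPM per kb).

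All 14 receptor genes of the TGF-beta family were expressed. The type 2 receptor gene Bmpr2 averaged 573 CPM, Tgfbr1 499 CPM, Bmpr1a 265 CPM, Amhr2 129 CPM, Tgfbr2 116 CPM and the activin receptor gene Acvr1 47.0 CPM. Of 58 receptor tyrosine kinase genes 35 were expressed. Axl, whose ligand GAS6 marks dying cells for uptake, stood far above the others at 2238, 2058 and 2090 CPM at 30 h and at 1923, 1826 and 1863 CPM at 54 h. The collagen receptor gene Ddr1 averaged 545 CPM, Epha2 175 CPM, Ryk 143 CPM, the insulin receptor gene Insr 141 CPM and Ptk7 94.9 CPM. The IGF receptor gene Igf1r averaged 75.5 CPM.

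Receptors coupled to G proteins and natriuretic peptide receptors were expressed in 22 of 44 cases. The thrombin receptor gene F2r led at 547 CPM, followed by Npr2 (86.1 CPM), which answers to CNP and helps to keep the oocyte in meiotic arrest. Ptger2, a prostaglandin E2 receptor gene, averaged 65.3 CPM, Lgr4 47.8 CPM, S1pr2 41.0 CPM and Lpar2 33.2 CPM. Both gonadotropin receptor genes, Fshr and Lhcgr, lay under 1 CPM in every library. Of 23 cytokine receptor genes 18 were expressed, with Ifnar1 at 119 CPM, Il6st at 101 CPM, Tnfrsf1a at 83.6 CPM, Prlr at 81.8 CPM, Il1r1 at 72.3 CPM and Ifngr2 at 61.8 CPM.

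Among transcription factors, 16 of 44 forkhead genes were expressed and 17 lay at or under the floor. Foxl2 had the highest mean of the family at 163 ± 16.7 CPM, followed by Foxk2 (136 CPM), Foxn2 (103 CPM), the cell cycle factor gene Foxm1 (78.9 CPM), Foxk1 (71.9 CPM) and Foxj3 (67.3 CPM). Foxo1, a granulosa factor that FSH signalling restrains, averaged 59.5 CPM. Of 20 Sox genes 7 were expressed: Sox4 averaged 333 CPM, Sox5 67.6 CPM, Sox12 34.1 CPM, and Sox9, Sox8 and Sox11 8.97, 8.93 and 7.81 CPM.

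Of 21 Gata, Runx and Lhx genes 9 were expressed. Gata4, a regulator of steroidogenic genes, ranged from 574 to 636 CPM. Cbfb averaged 159 CPM, Wt1 102 CPM, Runx1 89.7 CPM, Runx2 71.4 CPM and the GATA cofactor gene Zfpm2 47.7 CPM. AP-1 and Egr genes were expressed in 10 of 15 cases: Fosl2 averaged 776 CPM, Jund 210.0 CPM, Jun 86.1 CPM, Junb 41.4 CPM and Fos 22.1 CPM. Egr1, an immediate early gene, was at 85.1, 29.0 and 25.6 CPM at 30 h and at 24.5, 29.5 and 27.1 CPM at 54 h, with 30 h number 1 well above the other 5.

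Of 26 Klf and Sp genes 18 were expressed, with Klf6 at 196 CPM, Sp1 at 147 CPM, Sp3 at 120 CPM and Klf13 at 72.0 CPM. Of 16 Cebp, Stat and Nfi genes 14 were expressed, with Stat3 and Stat5b at 163 CPM each, Stat5a at 125 CPM, Nfic at 99.7 CPM and Stat6 at 91.5 CPM. All 14 Smad and Tead genes were expressed, led by Tead1 (429 CPM), its coactivators Wwtr1 (244 CPM) and Yap1 (186 CPM), and Smad5, Smad2 and Smad4 (144, 102 and 101 CPM).

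Process lists covered growth, structure and signalling. All 26 proliferation genes were expressed, with Ccnd2 at 561 CPM, Mki67 at 357 CPM, Top2a at 303 CPM and Rrm2 at 183 CPM. All 35 cytoskeleton genes were expressed, 14 of them among the 100 most abundant, and together they took 26349 to 33050 CPM. The 40 matrix and adhesion genes were all expressed, 10 of them in the top 100, with a sum of 23314 to 27178 CPM. Ribosomal protein genes were expressed in 77 of 84 cases with a median of 189 CPM and Rplp0 the highest at 1071 CPM.

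Of 29 TGF-beta ligands and antagonists 18 were expressed: after Inha came Fstl1 (570 CPM), Inhba, Inhbb and Bmp1 (233 CPM). Ovulation and cumulus genes were expressed in 15 of 20 cases, with the prostaglandin synthase genes Ptgs2 at 273 CPM and Ptges at 132 CPM and the cumulus matrix gene Vcan at 118 CPM. All 14 genes of the dissociation stress list, which respond to handling of cells, were expressed, led by Ier3 (139 CPM), Btg2 (119 CPM), Jun and Zfp36 (54.7 CPM). Their summed level was 822, 600 and 620 CPM at 30 h and 612, 572 and 583 CPM at 54 h, the highest again in 30 h number 1.

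Spread between replicates was described for the 10812 genes with a mean of at least 5 CPM, as the pooled SD of log2 CPM within the times. The median was 0.0609 on the log2 scale and 8522 genes (78.8%) lay under 0.1, so most genes varied little. At the other end 115 genes had an SD of at least 0.5 and 37 of at least 1. The steadiest was Atp6ap2, a subunit linked to the vacuolar proton pump, with 110.2, 110.1 and 109.9 CPM at 30 h and 118.5, 118.8 and 119.4 CPM at 54 h (SD 0.00418). The next 9, up to an SD of 0.00732, were Rab2b, Syt11, Csnk1d, Ube4a, Ubqln2, Wdr11, Eid1, Ssr3 and Sept2.

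Of the 20 genes of largest spread, 3 are given in full. Bgn, which encodes the matrix proteoglycan biglycan, was at 34.6, 197 and 132 CPM at 30 h and at 36.5, 210 and 127 CPM at 54 h. Col1a2, the partner chain of Col1a1, was at 46.6, 299.6 and 189.5 CPM at 30 h and at 70.3, 349 and 214 CPM at 54 h. Des, the muscle intermediate filament desmin, was at 22.3, 113 and 101 CPM at 30 h and at 23.8, 131 and 73.5 CPM at 54 h. In each of these the library of number 1 was the lowest and that of number 2 the highest, at both times.

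That order held for 17 of the 20, which were Cxcl14, Ltbp2, Grb10, Lama2, Adam12, Bgn, Hspb7, Col1a2, Des, Medag, Acan, Col6a3, Myh11, Sparcl1, Cdh11, Actg2 and Plac8. Ltbp2, which encodes a protein of elastic microfibrils, ranged from 7.78 to 58.2 CPM and Cxcl14, a chemokine gene, from 3.08 to 22.6 CPM. The exceptions were Mir6236 and Lars2, both highest in 30 h number 1 (92.4 and 813 CPM), and Ctla2a, highest in 30 h number 3 (21.4 CPM against 2.69 to 9.48 CPM). Leaving out 30 h number 1 left 13 genes with an SD of at least 1.

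**Figure D3:**
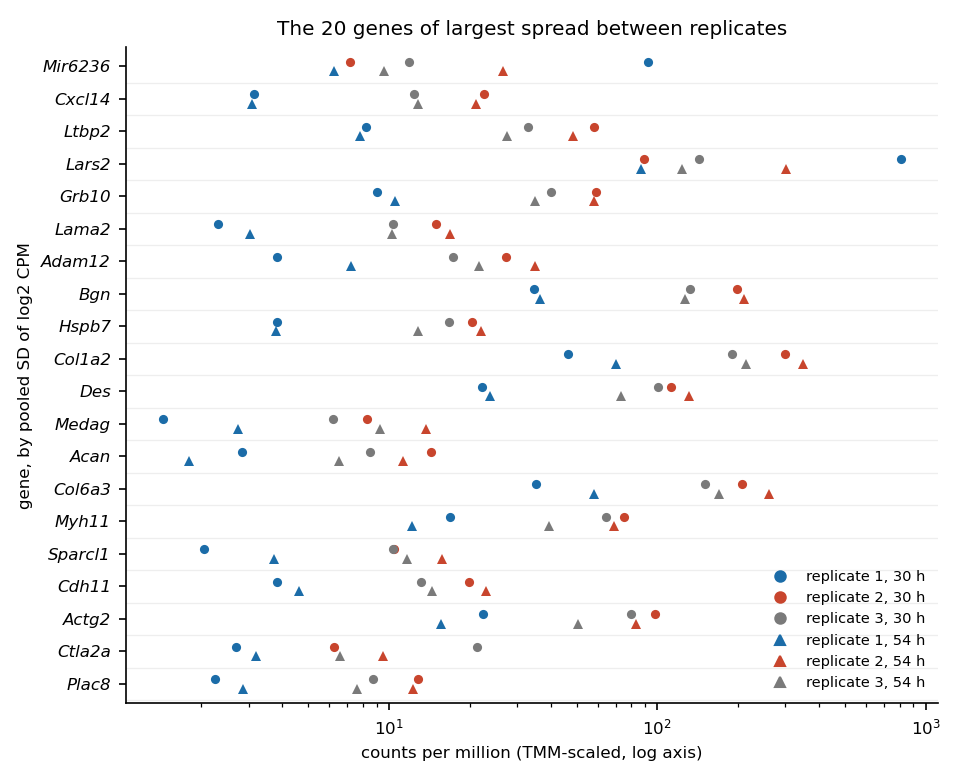
Level of the 20 genes of largest spread in each scrambled library. The log axis gives CPM, points are single libraries marked by time and replicate number; in 17 of 20 genes number 1 lies lowest and number 2 highest at 30 h and again at 54 h.

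Genes picked at 30 h were also read in the 54 h libraries. Whether libraries of the same number share a cell preparation is not stated, so these need not be independent. The 50 genes of largest SD at 30 h had a median SD of 1.16 there and of 1.06 at 54 h, against 0.0484 for all genes at 54 h. Number 1 was the lowest library in 46 of the 50 at 30 h and in 49 at 54 h, and 41 were also among the 50 of largest SD at 54 h. Genes that differed between libraries at 30 h thus differed at 54 h too, with the same number low.

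Since numbers 1 to 3 occur at both times, edgeR tested whether libraries of 1 number differed from those of another beyond the residual spread, with time as a term. A gene was called at a Benjamini-Hochberg adjusted p under 0.05, and 1251 of 14907 tested genes (8.39%) were called; 3049 had an unadjusted p under 0.05. Of the called genes 890 (71.1%) had number 1 lowest at both times and 346 (27.7%) had number 1 highest. Among all tested genes these shares were 21.5% and 23.5%. The test favours genes that keep 1 order at both times (89.9% of called against 30.8% of tested genes). The rise in these shares is thus partly set by the selection. The count of called genes was 2449 without the library 54 h number 1 and 601 without both libraries of number 1. The share of ERCC spike-in counts also moved with the number, at 0.260%, 0.127% and 0.105% of all counts at 30 h and 0.352%, 0.226% and 0.201% at 54 h, and its part in the result was not tested.

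Large differences went almost wholly in 1 direction. Numbers 1 and 2 were at least 2-fold apart in 399 called genes, 393 of them higher in number 2 and 6 higher in number 1. On the first principal component of the 6 libraries (52.4% of the variance) the scores were -36.1, 16.5 and 5.9 at 30 h and -20.7, 25.0 and 9.5 at 54 h, so that the numbers kept their order at both times. Within 1 time each number had 1 library, so the log2 differences at 30 h and at 54 h are shown side by side.

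**Figure D4:**
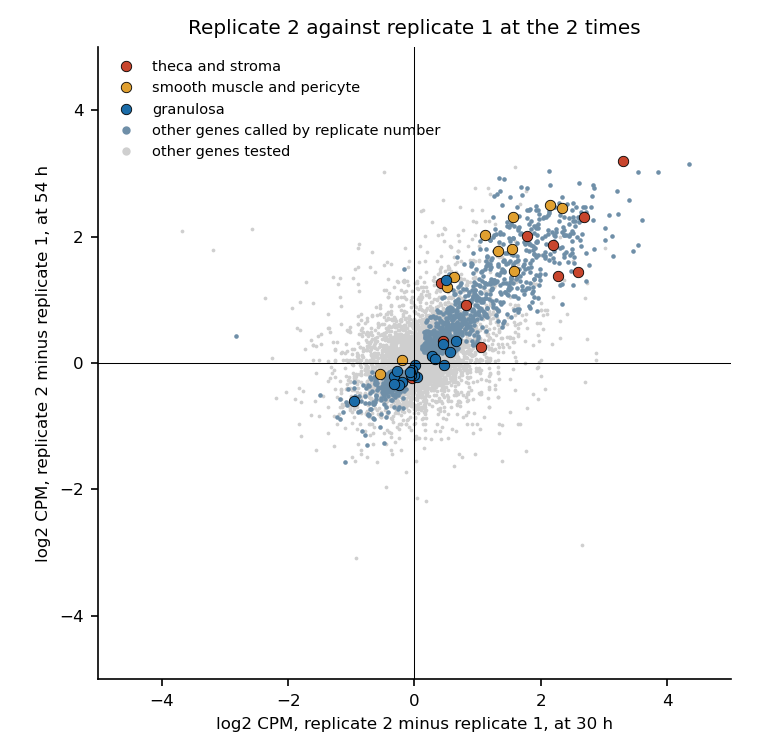
Difference between replicate numbers 2 and 1 at 54 h against that at 30 h, per tested gene. Both axes are log2 CPM differences (number 2 minus number 1), called genes are marked and the granulosa, stroma and smooth muscle lists coloured; of 399 called genes at least 2-fold apart, 393 lie on the side of number 2.

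Among the 20 genes of smallest p in that test, Bgn had a log2 difference of 2.52 between numbers 2 and 1 (edgeR, Benjamini-Hochberg adjusted p = 2.86e-08). Postn, a matrix protein gene of activated fibroblasts, was at 49.3, 199 and 144 CPM at 30 h and at 69.7, 275 and 185 CPM at 54 h (edgeR adjusted p = 7.71e-08). Col1a1, described above, had a log2 difference of 1.90 (edgeR adjusted p = 5.15e-07). The other genes of the first 20 were Ltbp2, Cxcl14, Cdh11, Grb10, Tnc, Col1a2, Adam19, Actg2, Ephb2, Ccdc80, Crispld2, Lama2, Adamts12, Loxl1, Acan, Col6a3 and Mrc2.

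Marker lists were read against the 8.39% of all tested genes called. Of 11 tested theca and stroma markers 8 were called, all lowest in number 1 and highest in number 2, with a median log2 difference of 1.77 between numbers 2 and 1 against -0.0047 over all genes. Their summed level was 388, 1100.2 and 828 CPM at 30 h and 503, 1371 and 946 CPM at 54 h. Of 11 smooth muscle and pericyte markers 9 were called, 8 of them lowest in number 1 and Mcam, a call lost without 30 h number 2, highest there, with a median of 1.54. Their summed level was 1127, 1730.3 and 1617 CPM at 30 h and 607, 1488 and 1058 CPM at 54 h. Of the 12 surface epithelium markers 5 were called, all lowest in number 1, with a median of 0.88 and sums of 299 to 385 CPM. Theca's own Insl3 lay at or under the floor in all 6 libraries and Cyp17a1 between 0.101 and 0.265 CPM.

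Matrix and adhesion genes were called in 21 of 40 cases, all lowest in number 1, with a median log2 difference of 0.30; the count was 33 without the library 54 h number 1. The endothelial markers called were 2 of 8 tested, and their sum was 7.30 to 17.1 CPM. Among 6 tested leukocyte markers the smallest edgeR adjusted p was 0.269 (Cd68), and among 4 tested oocyte markers 0.226 (Kit). Among the 100 most abundant genes 6 were called, Dag1 and Hs6st2 among the first 30: Dag1 was at 2218, 2869 and 2624 CPM at 30 h and at 2462, 2977 and 2708 CPM at 54 h (edgeR adjusted p = 0.00423). Ribosomal protein genes were called in 7 of 80 cases (8.75%), proliferation genes in 3 of 26 (11.5%) and cytoskeleton genes in 2 of 35 (5.71%). Over all tested genes the share was 8.39%, against 52.5% of the matrix and adhesion genes.

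**Figure D5:**
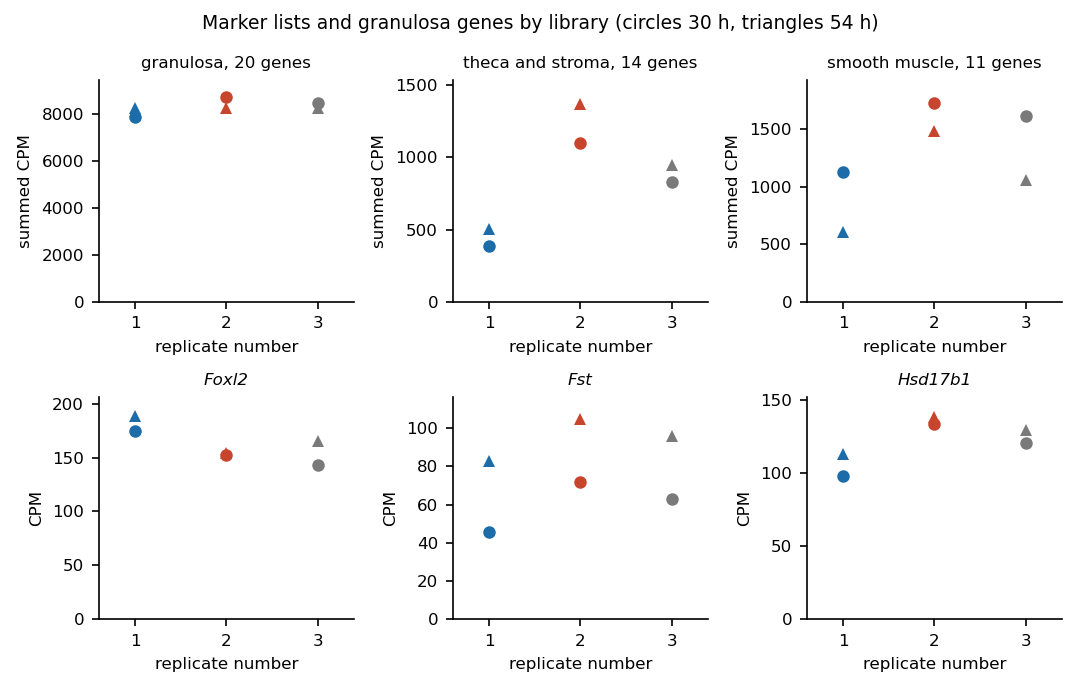
Summed level of 3 marker lists and level of Foxl2, Fst and Hsd17b1 in each scrambled library. Each panel has a linear axis from 0 in summed CPM or CPM, against the replicate number, and points are single libraries by time. The stroma sum runs from 388 to 1371 CPM with number 1 lowest at each time. The granulosa sum, in which Cyp11a1, Inha and Gja1 weigh most, lies between 7878 and 8701 CPM.

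Granulosa markers differed by number in both directions and by less. Of 19 tested, 8 were called (42.1%, against 8.39% of all tested genes). The median log2 difference of -0.09 mixes differences of both signs, so it does not measure their size. Fst (edgeR adjusted p = 0.0029), Hsd17b1 (0.00174) and Inhba (0.0336) were lowest in number 1. Foxl2 (edgeR adjusted p = 0.0195), Amhr2 (0.00779), Inhbb (0.0168), Gata6 (0.0261) and Wt1 (0.0498) were highest in number 1. Inhba was at 359, 531 and 460 CPM at 30 h and at 447, 505 and 487 CPM at 54 h. Amhr2 ran the other way, at 131, 111 and 121 CPM and then at 159, 124 and 131 CPM. The count of 8 was 3 without the library 30 h number 3, 5 without 54 h number 3 and 2 without both libraries of number 1. The calls lost without 30 h number 3 included those of Foxl2, Inhba and Inhbb. Those of Gata6 and Wt1 were lost under some of the alternatives.

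Steroidogenesis genes were called in 5 of 22 cases (22.7%, against 8.39% of all tested genes). Of these, 3 were lowest in number 1, and in 2 number 1 was neither lowest nor highest at both times. Akr1c18 was at 8.92, 23.1 and 15.4 CPM at 30 h and at 6.39, 13.7 and 11.04 CPM at 54 h (edgeR adjusted p = 4.76e-05), again lowest in number 1. TGF-beta ligands and antagonists were called in 11 of 25 cases (44%), 10 of them lowest and 1 highest in number 1. Of all called genes 71.1% were lowest and 27.7% highest in number 1. Of the receptor lists, nuclear receptors were called in 8 of 38 cases (21.1%) and receptor tyrosine kinases in 12 of 48 (25%). TGF-beta family receptors were called in 5 of 14 (35.7%) and receptors coupled to G proteins in 10 of 34 (29.4%). Stat5a, which acts downstream of prolactin, was at 98.6, 156.4 and 128 CPM at 30 h and at 105, 135 and 126 CPM at 54 h (edgeR adjusted p = 0.00159).

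Genes highest in number 1 were named after their values were seen. Thsd4, a microfibril-associated protein gene, was at 152, 90.5 and 117 CPM at 30 h and at 139, 79.8 and 104 CPM at 54 h (edgeR adjusted p = 5.74e-06). The imprinted gene Peg10 was at 1152, 729 and 904 CPM at 30 h and at 1816, 991 and 1239.9 CPM at 54 h, 1.73-fold higher in number 1 than in number 2. Pappa2, a protease gene that frees IGF from its binding proteins, had a log2 difference of -1.35 between numbers 2 and 1 (edgeR adjusted p = 6.39e-05).

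The baseline was then set beside the silenced groups, all of which share the scrambled libraries as controls. Foxl2 itself was at 33.8, 28.4 and 65.4 CPM with Foxl2 siRNA at 30 h and at 33.7, 57.5 and 25.2 CPM at 54 h, below every scrambled library (log2 difference 2.003 ± 0.217 SE, scrambled minus siRNA). Over both times edgeR called 6703 of 14907 genes (45%), 3529 (23.7%) higher and 3174 (21.3%) lower in scrambled cells. Of the 100 most abundant baseline genes 29 were higher and 27 lower, shares near the background.

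Of the genes higher in scrambled cells, Gja1 differed most within those 100. Its values with Foxl2 siRNA were 188, 234 and 589.7 CPM at 30 h and 80.5, 375 and 119 CPM at 54 h, against 1124 to 1700 CPM in scrambled cells (log2 difference 2.52 ± 0.36 SE, edgeR adjusted p = 0.00013). Next came the protease inhibitor gene Serpine2 (2.48), Ephx2 (2.44 ± 0.32 SE), Ybx1 (1.63), the fatty acyl-CoA reductase gene Far1 (1.43 ± 0.08 SE) and Heg1 (1.12). Of the genes lower in scrambled cells, the largest log2 differences were those of the malic enzyme gene Me1 (-1.09), Cemip (-1.06), Ivns1abp (-0.92), Vim (-0.84), Sptbn1 (-0.83) and Aldh1a1 (-0.80 ± 0.06 SE). Aldh1a1 reached 6797 to 8665 CPM with Foxl2 siRNA against 4016 to 4960.2 CPM in scrambled cells, and these groups did not overlap.

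Of 19 tested granulosa genes, 8 were higher and 5 lower in scrambled than in Foxl2 siRNA cells, beside 23.7% and 21.3% of all tested genes; the count of lower genes is near that background. The higher were the silenced target Foxl2 itself, Fst (log2 difference 2.89), Hsd17b1 (2.32), Gja1, Esr2 (1.09), Nr5a2 (0.40), Nr5a1 (0.27) and Cyp19a1, which was at 0.0385 to 0.964 CPM with Foxl2 siRNA. The lower were Wt1 (-1.22), Amh (-1.03), Cyp11a1 (-0.69), Amhr2 (-0.60) and Gata4 (-0.45). Inha was not called, with a log2 difference of 0.07 ± 0.12 SE (edgeR adjusted p = 0.69).

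With Esr2 siRNA at 30 h, Esr2 was at 12.9, 14.5 and 13.9 CPM against 60.4 to 61.6 CPM in scrambled cells (log2 difference 2.147 ± 0.352 SE, edgeR adjusted p = 0.0038). EdgeR called 631 genes (4.23%), 463 (3.11%) higher and 168 (1.13%) lower in scrambled cells; with upper-quartile scaling the split was 396 and 250. The count was 342, 306 and 255 without scrambled number 1, 2 or 3, and 238, 1030 and 309 without Esr2 siRNA number 1, 2 or 3. Of the 100 most abundant genes 6 were called, all higher in scrambled cells. Ezr, which links membrane to actin, was at 928, 802 and 865 CPM in scrambled and at 177, 465 and 218 CPM in Esr2 siRNA cells (log2 difference 1.59). The lipoprotein lipase gene Lpl differed by 1.32, Anxa2 by 0.78, Serpinh1 by 0.34, Actb by 0.27 and Ssr3 by 0.26. The calls of Actb, Serpinh1 and Ssr3 were lost when some single libraries were left out, and that of Ezr without Esr2 siRNA number 3. In the granulosa list 1 gene was called, Esr2, which does not show that the other members were unchanged. The median log2 difference of the 19 tested was 0.33, against 0.0053 over all tested genes. Gja1, not called, was at 561, 487 and 649 CPM with Esr2 siRNA, against 1124, 1401.5 and 1337 CPM in scrambled cells. Foxl2, also not called, was at 112, 128 and 114 CPM against 174, 152 and 143 CPM. Inha (1643 to 1820 CPM), Fst (26.4 to 35.3 CPM) and Cyp19a1 (1.02 to 1.89 CPM) lay below every scrambled 30 h library as well. Cyp11a1 overlapped, at 2478 to 2646 against 2259 to 2731 CPM. In simulated data this contrast recovered 43.3% of genes changed 1.5-fold.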

How the data were processed

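The authors deposited 1 table of raw read counts per library. Tools named in the submitters' processing notes are TopHat2, DESeq2 and bcl2fastq 2.15.0, with build mm10. How reads were assigned to genes, with which annotation and strand rule, is not given in the sources used here, so overlapping and antisense genes cannot be told apart. Each library had 24490 genes and 92 ERCC rows, which were left out; 15 symbols turned into dates were restored, and 0 mitochondrially encoded genes were listed. Levels are TMM-scaled CPM. Differences were tested two-sided with edgeR 4.0.16 in R 4.3.3 (quasi-likelihood, Benjamini-Hochberg over 14907 genes kept by its expression filter): between replicate numbers in the 6 scrambled libraries with time as a term (2 residual degrees of freedom, biological coefficient of variation 0.043), and against the siRNA groups in 1 fit of 15 libraries (10 residual degrees of freedom, 0.148). DESeq2 1.42.0 and limma 3.58.1 were alternatives. Tested on simulated data, the number test recovered 100% of genes changed 1.5-fold, and the Foxl2 and Esr2 contrasts 89.6% and 43.3%. Over the simulated folds of 1.5, 2 and 4 together, 18 of 218 calls of the number test were false. Within each simulated test all genes had the same coefficient of variation, and no time effect was set. These shares may therefore not hold for real genes, whose spread differs.

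Same-numbered scrambled libraries deviated together across times (r across genes 0.632, 0.49 and 0.143 for numbers 1, 2 and 3), each over 0.1, so the titles' numbers were taken to pair them. For number 3 this is weak, since its 30 h library correlated more with 54 h number 2 (0.336). The cut does not separate pairs, as 30 h number 2 and 54 h number 3 also passed it (0.163). The number test used the same 6 libraries, so it is not separate evidence for the pairing. Genes are not independent replicates. Spread is the SD of log2 CPM with a prior count of 2. Of the genes 98.3% matched GENCODE M21, which gave positions (GRCm38) and lengths; promoters come from RefSeq GRCm38.p6. Members and gene lists were chosen with earlier results of these data known. The genes named were the 30 most abundant, all granulosa and steroidogenesis genes, the leading 3 of each other cell type list with its members at the floor, the leading 6 of receptor and factor lists and 4 of process lists, the 20 most and 10 least variable, the 20 of smallest p by number, and the 6 of largest change each way per contrast within the top 100; exceptions are marked or are known granulosa genes. Some genes that this rule covers are not reported here.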

Additional observations from a re-analysis of the deposited data

Results flagged for a closer look

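Among 104 values examined over the 6 scrambled libraries, 7 had a library far from the other 5. Of these, Mir6236, Lars2 and Ctla2a were among the 20 genes chosen for large spread, which favours such a library. Of the other 84 values 4 were apart, near the 1 in 20 that chance sets apart. In 5 of the 7 that library was 30 h number 1. There Rn45s was at 2960 CPM (others 625 to 1000 CPM), Lars2 at 812.6 CPM (86.96 to 301 CPM), Mir6236 at 92.41 CPM (6.226 to 26.67 CPM) and Hsd17b12 at 164.7 CPM (147.7 to 153.9 CPM), and the summed dissociation stress genes were at 821.9 CPM (571.6 to 619.8 CPM). Ctla2a was at 21.37 CPM in 30 h number 3 (others 2.694 to 9.483 CPM). Star was lowest at 285.7 CPM in 54 h number 1 (others 304.9 to 316.3 CPM). Outside the gene rows, the ERCC spike-in RNAs reached 0.3521% of all counts, in 54 h number 1.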

How the results depend on the processing

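Alternatives were other scalings, filters, thresholds and tools and leaving out single libraries; leaving out both libraries of a number was chosen after seeing the data. Of 125 alternative values of the main counts, 107 stayed within 1.5 times the main value. Ranked by CPM per kb, 56 of the 100 most abundant genes stayed in the top 100, since length enters. Genes with an SD of at least 1 numbered 93 with a mean of at least 1 CPM, 13 with at least 20 CPM, and 13 to 49 with single libraries left out. Genes called between numbers were 904 to 2449 with single libraries left out and 601 without both libraries of number 1; DESeq2 called 874 and limma voom 1243. Of the lists, matrix and adhesion had 19 to 33 calls and granulosa 3 to 10 with single libraries left out, and granulosa 2 without both libraries of number 1; stroma had 8 to 10 calls. Against Esr2 siRNA, DESeq2 called 1109 genes, a fit of the compared groups alone 1131, and fits without single libraries 238 to 1030. With the replicate block, the Foxl2 contrast called 6676 genes and the Esr2 contrast 607; same-numbered scrambled and siRNA libraries at 30 h did not all deviate together (0.494, 0.439 and 0.0662 for Foxl2 siRNA; -0.139, -0.474 and 0.322 for Esr2 siRNA), so across these groups the number is only shared. The causes were not tested. Of the tested single-gene values 1231 stayed called or not called as before, 44 lost a call and 31 gained one. Against the siRNA groups no called gene changed direction. In the number test, direction could change only where a library of number 1 or 2 was left out. There it was read from the other time alone, and no called gene changed it. Of 666 values of mean levels 661 stayed within 1.5 times. Without 30 h number 1 Lars2 fell from 259.5 to 148.8 CPM and Mir6236 from 25.64 to 12.29 CPM; their medians were 133.2 and 10.69 CPM. Cyp21a1, under the floor, also moved. Depth limits genes near the floor of 0.0505 to 0.0667 CPM, and 3 libraries per group limit every comparison.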
